A study of Mus musculus with 12 samples.

Results

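The genes described here are the cytosolic ribosomal protein genes of the mouse, measured in trigeminal ganglia, the sensory ganglia of the face and meninges. Members were all genes in the deposited table whose symbol is Rpl or Rps followed by a number and optional letters. The rule gave 82 of the 51341 genes in the table, 50 named for the large (60S) subunit and 32 for the small (40S) subunit. Names ending in -ps (288 genes), Rplp and Rps6k were left out. Symbols that end in a digit after a letter, such as Rps3a1, also fall outside the rule. By annotation 78 members are protein coding and 4 (Rps4l, Rpl37rt, Rpl6l and Rpl32l) are pseudogenes.

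Ganglia came from 12 CD1 mice, an outbred stock, with 1 poly(A)-selected library per mouse. The labels class 6 of them as responders and 6 as nonresponders to the neuropeptide PACAP, which is linked to migraine; each class holds 3 males and 3 females. The title of the series places the work in a mouse model of light aversion; the scoring, the dose and the interval before dissection are not stated in the labels. All 12 mice are of 1 stock, and the labels name no untreated group. The first number in the sample descriptions also separates the groups (44, 45, 48 and 49 for responders, 68, 82 and 83 for nonresponders) and cannot be told apart from response status. All 15 sensory neuron markers were expressed, with a summed level of 3509 to 7193 FPKM (fragments scaled to transcript length and library depth) per mouse. Marker levels of other tissues differed between mice and between groups and are given beside the results they touch.

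Ribosomal proteins join the ribosomal RNAs to form the particles that make every cellular protein, and nearly all of them are needed in equal numbers per ribosome. Sensory neurons use ribosomes in the cell body and also in axons. In mammals these mRNAs begin with a C followed by an unbroken run of pyrimidines, the 5′ terminal oligopyrimidine (TOP) tract, through which the growth-controlling kinase mTORC1 sets their translation. The genes have also seeded many intronless copies in the genome, most of them processed pseudogenes.

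Examples of the TOP tract are shown because it is the sequence feature for which these mRNAs are known. Of the 9 windows, 8 were chosen for having a tract, which a minority of members had at the annotated start. Each line below holds 30 bases of the reference genome from RefSeq (GRCm38.p6), 10 before the annotated start and 20 from the start on, with the longest pyrimidine run that begins with C near the start in capitals.
Rpl15: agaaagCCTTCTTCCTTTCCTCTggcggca
Rpl35: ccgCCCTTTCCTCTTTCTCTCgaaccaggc
Rpl28: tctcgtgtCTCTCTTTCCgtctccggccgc
Rpl38: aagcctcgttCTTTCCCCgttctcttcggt
Rps6: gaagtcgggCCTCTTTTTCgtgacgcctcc
Rps10: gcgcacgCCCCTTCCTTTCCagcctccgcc
Rps27: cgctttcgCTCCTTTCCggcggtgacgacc
Rps27rt: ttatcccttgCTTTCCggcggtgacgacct
Rpl13: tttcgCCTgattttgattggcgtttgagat
The windows lie at chr14:18270967-18270996 on the minus strand (Rpl15), chr2:39005112-39005141 on the minus strand (Rpl35), chr7:4792955-4792984 on the plus strand (Rpl28), chr11:114668570-114668599 on the plus strand (Rpl38) and chr4:86857348-86857377 on the minus strand (Rps6). Those of Rps10 (chr17:27635225-27635254), Rps27 (chr3:90213629-90213658) and Rps27rt (chr9:114982720-114982749) are on the minus strand, and that of Rpl13 (chr8:123102340-123102369) is on the plus strand. Rps27rt is a retrogene of Rps27, and after the tract its window carries the letters of the Rps27 window shifted along. Rpl13 is shown as a member with no tract at its annotated start.

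RefSeq start windows were matched for 61 of the 82 members. A C at the annotated start followed by at least 4 further C or T, read on the transcribed strand only, was found in 14 of the 61 (23.0%), against 3.01% of the 27025 matched genes of the whole table. A run of at least 8 C or T that begins with C within 10 bases of the start, counted whether or not the first motif was also there, was found in 23 of the 61 (37.7%), against 9.43% of all matched genes. Among 69 matched mitochondrial ribosomal proteins, which serve the separate ribosome of mitochondria, the first motif was found in 0 and the second in 7.25%. A match in this window describes letters and does not locate the start used in these ganglia.

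The tested protein-coding members shared other features that the naming rule did not use. Their median longest coding sequence was 454.5 bases, against 1380 in all tested protein-coding genes, and their median level was 125 FPKM, against 7.07. Small nucleolar RNA genes, whose RNAs guide modification of ribosomal RNA, lay inside 27 of these 76 members (35.5%), against 1.67% of all tested protein-coding genes. Rpl4 alone held 5. The 82 members were spread over 19 chromosomes, with 13 on chromosome 7.

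Levels among the members spanned a wide range. The mean over 12 mice was at least 100 FPKM in 48 members, from 10 to 100 in 25, from 1 to 10 in 7 and below 1 in 2. FPKM is scaled by length, but levels set side by side between genes also depend on how reads were shared with near-identical copies. Such copies held over 20% of the summed level of gene and copies in 27 of the 80 tested members and over 50% in 13. The levels and ranks below are those of each gene alone, and adding copies could change the order. Rps14, a small subunit protein of the platform, was the most abundant member: its level had a lowest value of 289, a median of 340 and a highest value of 502 FPKM in responders, and 282, 353 and 412 in nonresponders. It was followed by the large subunit genes Rpl13 (mean 338), Rpl13a (332), Rpl8 (316) and Rpl4 (308 FPKM). The median member level was 111 FPKM in the large and 134 FPKM in the small subunit.

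The lowest tested members were Rpl32l at a mean of 2.54, Rps27rt at 3.00, Rps27l at 3.16, Rpl26 at 4.11 and Rpl6l at 6.19 FPKM. Of these, Rpl26 is the sole standard ribosomal protein gene, encoding a protein near the exit of the peptide tunnel, and its level is taken up again with its copies. Rpl39l and Rpl10l, paralogs known mainly from the testis, did not reach the minimum of 1 FPKM in 3 mice. Rpl10l was listed at 0 in all 12 mice and Rpl39l at 0 in 5, with a highest value of 0.211 FPKM. The other 80 members, 48 of the large and 32 of the small subunit, passed that minimum and were tested.

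**Figure D1:**
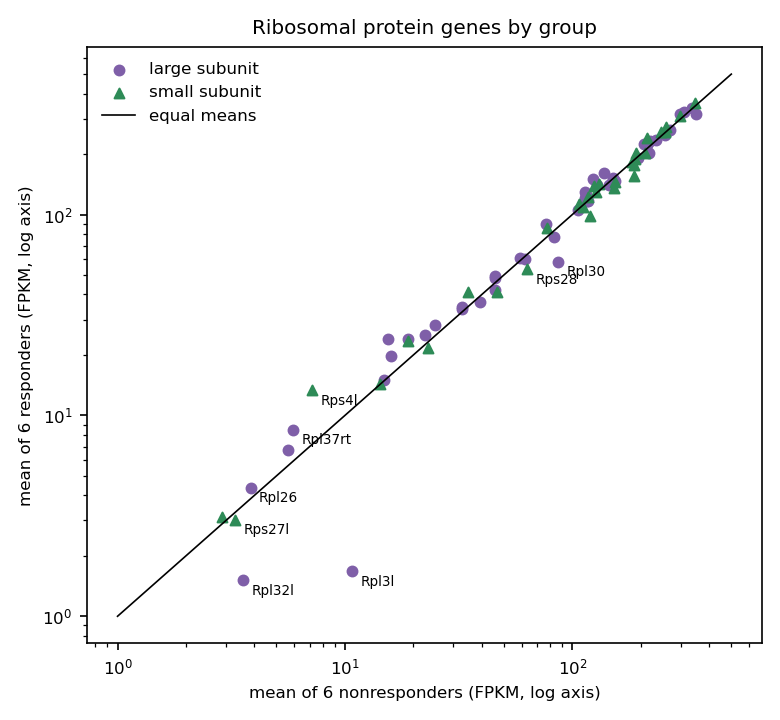
Mean level of each of the 80 tested members in the 6 nonresponders (horizontal, FPKM) and the 6 responders (vertical, FPKM), both on log axes, with circles for large and triangles for small subunit genes and a line at equal means. Most genes lie along the line. Genes far from it include Rpl3l (1.68 in responders, 10.8 in nonresponders), a member at a low level, and Rpl30, which like most members has near-identical copies.

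No ribosomal protein gene passed the test between responders and nonresponders, and the summed levels of the groups overlapped. Differences were tested on log2(FPKM + 1) with limma, adjusting for sex and, by Benjamini-Hochberg, for all 14203 genes tested; fold changes on this scale understate those of low genes. At an adjusted p below 0.05, 0 of 80 members were higher and 0 were lower in responders, where the background was 0.0141% and 0.00704% of all genes. At an unadjusted p below 0.05, 1 member (Rps4l) was higher and 0 were lower, against 3.23% and 4.17% of all genes. In 0 members did the 6 responders and 6 nonresponders fail to overlap, against 0.253% of all genes for higher and 0.296% for lower responders.

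The summed member level came to 10263 ± 1998 FPKM among responders and 10122 ± 1564 among nonresponders (SD, n = 6 each). As a share of all FPKM this was 3.32% ± 0.34 and 3.31% ± 0.33 (SD, n = 6 each). With growth hormone (Gh) left out of the total, the shares were 3.47% ± 0.67 and 3.31% ± 0.33 (SD, n = 6 each). That step moved responder 1 from 3.96% to 4.82%. The median log2 difference over the members was 0.03, with 0.04 in the large and 0.02 in the small subunit, beside 0.00 over all genes. Estimates were above 0 in 46 members (57.5%, against 50.7% of all genes) and below 0 in 34 (42.5%, against 49.3%). That split rested on single mice: without responder 1 it was 25 above and 55 below, without responder 6 it was 59 and 21, and without nonresponder 4 it was 64 and 16.

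Markers of other cell types differed in level between the groups, with 0 genes called by limma at an adjusted p below 0.05 in any of these lists. Of 10 pituitary markers, 9 were higher in responders at an unadjusted p below 0.05, with a median log2 difference of 2.66. Their sum ran from 360 to 78175 FPKM among responders (median 2453) and from 27.4 to 1055 among nonresponders (median 359). Of 9 myelinating Schwann cell markers, 7 were lower unadjusted (median -0.60), with sums of 2255 to 4315 FPKM against 4161 to 6174. Of 6 tested fibroblast and meningeal markers, 4 were lower unadjusted (median -0.87), and the sums, 261 to 514 FPKM against 553 to 1610, did not overlap. Of 8 skeletal muscle markers, 1 was lower unadjusted, with all 8 estimates lower and a median of -1.51. All 8 neutrophil markers also had lower estimates (median -1.70), with 0 passing unadjusted. Of 6 satellite glia markers, 1 was lower unadjusted (median -0.13). The unadjusted background was 3.23% of all genes higher and 4.17% lower. The part of these cell types in the ribosomal protein comparison was not tested.

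The estimates were small for most members and their precision was moderate. The log2 estimate was under 0.25 in size in 70 of 80 members and at least 0.5 in 7. The 95% interval of the difference lay within a 1.5-fold change either way in 60 members and within 1 log2 unit either way in 72. The balance between subunits had the same mean in both groups: the mean log2 level of large minus small subunit members was -0.35 ± 0.08 in responders and -0.35 ± 0.06 in nonresponders (SD, n = 6 each).

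**Figure D2:**
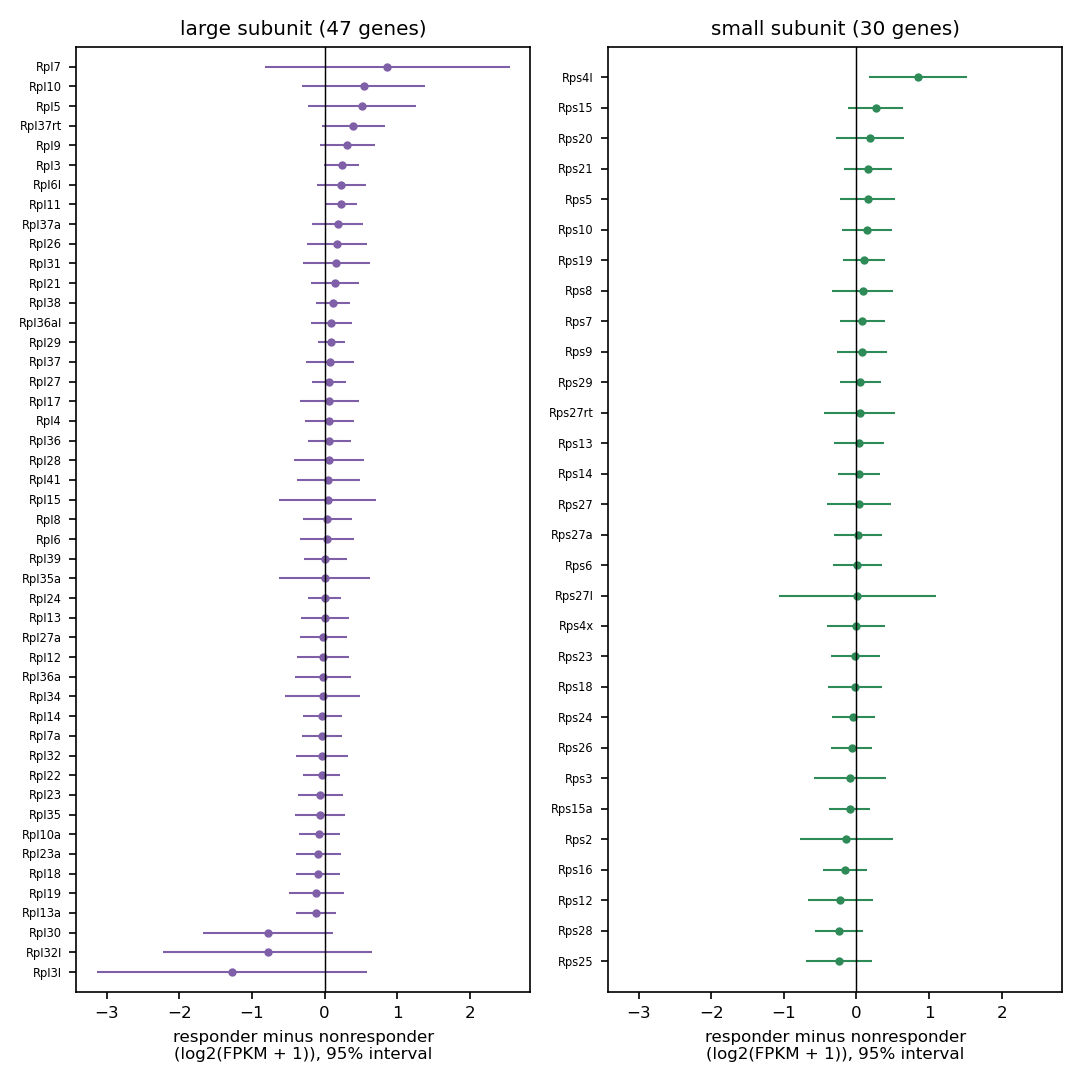
Difference between responders and nonresponders in log2(FPKM + 1) for 47 large (left) and 30 small (right) subunit genes, with points for estimates and bars for unadjusted 95% intervals; positive values are higher in responders. Of the 77 bars, the one for Rps4l is the only one that excludes 0, and the widest belong to Rpl3l, Rpl7, Rpl32l and Rps27l.

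Among large subunit members with higher estimates in responders, Rpl11 had the smallest p, while Rpl7, Rpl10, Rpl5, Rpl37rt, Rpl9, Rpl3 and Rpl6l had larger estimates. Rpl11 belongs to the 5S RNA particle and is known for binding Mdm2 when ribosome assembly is disturbed. Its lowest, median and highest levels were 76.1, 89.4 and 106 FPKM in responders and 65.8, 77.4 and 85.9 in nonresponders. Responder 1 was the highest and nonresponder 6 the lowest mouse, and the groups overlapped. The log2 difference was 0.23 ± 0.10 (SE), with a limma adjusted p of 0.676.

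Rpl3, near the peptidyl transferase centre, had lowest, median and highest levels of 124, 165 and 182 FPKM among responders and of 122, 132 and 170 among nonresponders. In this gene 5 responders lay between 162 and 182 and responder 6 was the low one. The log2 difference was 0.23 ± 0.11 (SE; limma adjusted p = 0.679). Rpl9, a protein of the stalk base, had medians of 23.4 FPKM in responders and 17.6 in nonresponders (log2 difference 0.31 ± 0.17, adjusted p = 0.720). The retrogene Rpl37rt, near-identical to Rpl37, had medians of 7.35 and 6.15 FPKM, and responder 5 stood highest at 14.3 (log2 difference 0.40 ± 0.20, adjusted p = 0.688).

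Among large subunit members with lower estimates in responders, the smallest p belonged to Rpl30, whose protein sits at the interface of the subunits. Rpl30 (chr15:34440505-34443640, minus strand, GRCm38) had lowest, median and highest levels of 15.2, 66.3 and 104 FPKM in responders and 59.1, 87.6 and 109 in nonresponders. The responder values were pulled down by responder 6 (15.2) and responder 5 (28.8 FPKM), and the other 4 responders lay within the nonresponder range. Of these, responders 2, 3 and 4 stood above nonresponder 6 alone. The log2 difference was -0.78 ± 0.41 (SE; limma adjusted p = 0.692), and with near-identical copies added it was 0.14 (adjusted p = 0.856).

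In the small subunit, Rps4l had the smallest p of all members. Rps4l (chr6:148354656-148355598, plus strand, GRCm38) is annotated as a transcribed processed pseudogene related to Rps4x, a core small subunit gene on the X chromosome. Its lowest, median and highest levels were 6.58, 14.01 and 17.9 FPKM in responders and 3.70, 6.90 and 12.3 in nonresponders. Responders 1, 2, 3 and 5 lay above every nonresponder, while responders 4 and 6 fell within the nonresponder range. The log2 difference was 0.85 ± 0.30 (SE; unadjusted p = 0.0176, limma adjusted p = 0.602), so it did not pass over all genes. Rps4x itself had medians of 232 and 241 FPKM and a log2 difference of 0.00 ± 0.18 (adjusted p = 0.998).

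The other small subunit genes named by the smallest p differed less. Rps15, of the small subunit head, had medians of 20.7 FPKM in responders and 17.6 in nonresponders (log2 difference 0.26 ± 0.17, adjusted p = 0.750). Rps28 had medians of 51.3 and 61.0 FPKM (log2 difference -0.24 ± 0.15, adjusted p = 0.742), Rps25 had 97.8 and 119 (-0.24 ± 0.21, adjusted p = 0.795) and Rps16 had 128 and 146 (-0.16 ± 0.14, adjusted p = 0.797). In Rps28, Rps25 and Rps16 the highest mouse was nonresponder 4.

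Paralogs with restricted expression behaved differently from their parents in level and spread. Rpl3l, which replaces Rpl3 in striated muscle, lay at 0.218 to 4.72 FPKM among responders, with a median of 1.22, and at 0.327 to 27.7 among nonresponders, with a median of 4.08. Nonresponders 3 and 4 both stood at 27.7 FPKM, far above the other 10 mice. The same mice had the highest summed level of 8 skeletal muscle markers, 1752 and 2016 FPKM, while the other 10 lay between 9.99 and 490 FPKM. The part of muscle RNA in the Rpl3l difference (log2 -1.27 ± 0.85, adjusted p = 0.757) was not tested.

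Rps27l, a paralog of Rps27 known as a p53 target, lay between 0.637 and 5.29 FPKM among responders and between 0.499 and 8.28 among nonresponders, while Rps27 had medians of 232 and 252 FPKM. Rpl36al and its parent Rpl36a were at similar levels, with means of 125 and 117 FPKM in responders and 115 and 118 in nonresponders. Rpl39 had a mean of 116 FPKM in each group, where Rpl39l was near 0. Rpl10, the X-linked parent of Rpl10l, averaged 24.0 ± 12.9 FPKM among responders and 15.5 ± 7.61 among nonresponders (SD, n = 6 each; log2 difference 0.54 ± 0.39, adjusted p = 0.766).

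The members varied together from mouse to mouse. Their summed level was 14213 FPKM in responder 1 and 12944 FPKM in nonresponder 4, and from 8493 to 10343 in the other 10 mice. Responder 1 was the highest mouse for 43 of the 80 tested members and nonresponder 4 for 23, and neither mouse was the lowest for any. At the other end, responder 6 was lowest for 21 members and nonresponder 6 for 20. How often each mouse was highest or lowest over all genes was not counted.

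The shift ran through most of the family. Measured as deviation from the mouse's own group mean, the median over the 80 members was 0.45 log2 units in responder 1, with 74 members above their group mean, and 0.38 in nonresponder 4, with 76 above. It was -0.25 in responder 6, with 9 above, -0.21 in nonresponder 6, with 7 above, and -0.16 in nonresponder 2, with 14 above. Over all 14203 genes the median deviation stayed between -0.03 and 0.03 in every mouse. Of these genes, 7387 lay above their group mean in responder 1 and 6528 in nonresponder 4. The count was 6418 in responder 6, 6975 in nonresponder 6 and 6797 in nonresponder 2. Mitochondrial ribosomal proteins did not share the shift, at -0.07 in responder 1 and -0.02 in nonresponder 4. These deviations describe single mice and carry no test.

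Both subunits and other translation genes stood high in the same mice. In responder 1 the median deviation was 0.39 for large and 0.50 for small subunit members, and in nonresponder 4 it was 0.34 and 0.41. The 17 elongation factors and other TOP mRNAs, such as Eef1a1 and Tpt1, had medians of 0.37 in responder 1 and 0.17 in nonresponder 4. The 7 further ribosomal genes outside the naming rule (among them Rplp0, Rpsa and Rack1) had 0.51 and 0.28.

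**Figure D3:**
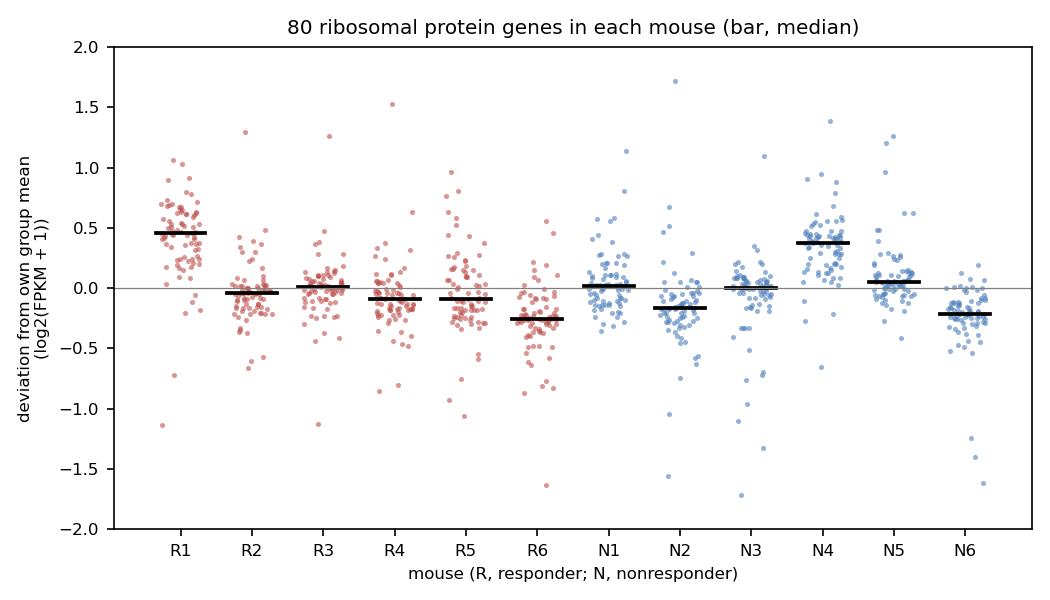
Deviation of each of the 80 tested members from its own group mean, in log2(FPKM + 1), for each mouse (R, responder; N, nonresponder); points are genes and black bars are medians. The bars stand at 0.45 in R1 and 0.38 in N4, and lowest at -0.25 in R6; 4 points lie outside the axis limits of 2 log2 units.

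The 2 mice with high ribosomal protein levels also stood apart in tissue markers. Responder 1 had a summed level of 78175 FPKM for 10 pituitary markers, of which growth hormone (Gh) made 63429, against 27.4 to 6883 FPKM in the other mice, and the lowest sums of sensory neuron (3509 FPKM), satellite glia (598) and myelinating Schwann cell markers (2255). Nonresponder 4 had the highest sums of 8 neutrophil markers (4158 FPKM) and of 5 red cell markers (24104 FPKM), beside the highest muscle sum given above, and the second lowest sensory neuron sum, 3980 FPKM, where the other 10 mice lay between 4579 and 7193. The depth implied by the values was 17200000 fragments for responder 1, the smallest, with responder 6 next (21100000). For nonresponder 4 it was 38500000, the largest, but responders 3 and 4 were close (37600000 each), so nonresponder 4 did not stand apart in depth. These depths are rough: 16.38% of single-exon values in responder 1 and 16.99% in nonresponder 4 lay within 0.05 of a whole fragment number. The part of depth and of these tissues in the ribosomal protein levels was not tested; in bulk tissue, fewer cells of a type and less RNA per cell cannot be told apart. Without both mice, 0 of 80 members passed the adjusted threshold between groups and the median log2 difference was -0.01.

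Spread within groups differed between members. Near-identical copies elsewhere in the genome were found for 74 of the 80 tested members, steady and variable alike. The within-group SD of log2(FPKM + 1) had a median of 0.29 over the 80 tested members. Among the steadiest were Rpl29 (0.12), Rpl11 (0.16) and Rpl38 (0.17). The most variable were Rpl3l (1.55), Rpl7 (1.43), Rpl32l (1.20), Rps27l (0.89) and Rpl10 (0.75). Copies held 84.9% of the summed level of gene and copies in Rpl29, the steadiest member. Rpl3l, the most variable, had no copy, and the share was 2.8% in Rpl7, 99% in Rpl32l, 1.3% in Rps27l and 57.01% in Rpl10.

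Other loci with at least 90% identity over at least 200 bases of transcript were found for 75 of the 82 members, 1008 loci in all, of which 173 had a mean of at least 1 FPKM. In 13 tested members the copies held over 50% of the summed level of gene and copies. Of these, 4 (Rpl32l, Rpl37rt, Rpl6l and Rps27rt) are themselves copies and their standard gene made up the sum, which leaves 9 (Rpl26, Rpl34, Rps2, Rpl29, Rpl21, Rpl35a, Rpl15, Rpl5 and Rpl10). The labels do not say how reads that match several loci were shared out, so the level of such a gene and of its copy are uncertain one by one.

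The closeness of gene and copy is shown for 3 pairs, with 30 bases of the coding sequence from the GENCODE M21 transcripts around a difference, which is in capitals.
Rpl30: gtgctgggctacaaGcagactctgaagatg
Gm12191: gtgctgggctacaaAcagactctgaagatg
Rpl26: gttcaggttgttcgCggacactacaaaggc
Gm15772: gttcaggttgttcgTggacactacaaaggc
Rpl35a: gcttatgtgtataaGgcaaaaaacaataca
Gm10243: gcttatgtgtataaAgcaaaaaacaataca
With positions counted from the first base of the start codon and the gene's base written first, the substitutions are G96A in the Rpl30 pair, C177T in the Rpl26 pair and G156A in the Rpl35a pair. Over the whole coding sequence, the Rpl30 pair differed at 1 of 348 bases, the Rpl26 pair at 2 of 438 and the Rpl35a pair at 1 of 333. These are reference sequences and were not read from the CD1 mice.

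Rpl30 and its processed pseudogene Gm12191 (chr11:49678710-49679057, minus strand, GRCm38) had opposed values most plainly in responders 5 and 6, but not in every mouse. In responders 5 and 6, where Rpl30 was at 28.8 and 15.2 FPKM, Gm12191 was at 39.97 and 43.4 FPKM, its highest values. All 6 responders had Gm12191 at 22.8 FPKM or more. In responders 1 to 4 it was at 22.8 to 36.0 FPKM. Nonresponders 1, 2, 3 and 5 had it at 2.26, 1.85, 1.91 and 1.16 FPKM, and nonresponders 4 and 6 at 30.1 and 24.4. Rpl30 was lower in responders 2 to 6 and nonresponder 6 than in nonresponders 1, 2, 3 and 5. In responder 1 and nonresponder 4 it lay within the range of those 4 nonresponders. The log2 difference of Gm12191 was 2.44 ± 0.69 (SE; unadjusted p = 0.00447, limma adjusted p = 0.453), a gene chosen for its relation to Rpl30 after its values were seen. With all copies added, the within-group SD of Rpl30 went from 0.74 to 0.29.

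Rpl26 is the clearest case of a level held by a copy. Rpl26 (chr11:68901583-68906989, plus strand) lay at 2.89 to 5.66 FPKM among responders and 1.85 to 5.56 among nonresponders. Its processed pseudogene Gm15772 (chr5:3236431-3236868, plus strand) was at 250 to 382 FPKM in responders and 254 to 349 in nonresponders, a level like that of the most abundant members. Gm15772 had a log2 difference of 0.02 ± 0.11 (adjusted p = 0.979).

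The SD of other members was also lower for the sum of gene and copies. It went from 0.67 to 0.32 in Rpl5, from 0.57 to 0.28 in Rpl15, from 0.54 to 0.24 in Rps2 and from 0.75 to 0.48 in Rpl10. Of 74 tested members with a copy, 52 had a smaller SD with copies added, and of 11 members with an SD above 0.5, 7 were at or below it; those 11 were picked for a high SD. The copies held 66.6% of the sum in Rpl5, 76.2% in Rpl15, 87.0% in Rps2 and 57.01% in Rpl10, so by construction the SD of these sums is largely that of the copies. Some members had a larger SD with copies, among them Rpl21 (0.27 to 0.32) and Rpl29 (0.12 to 0.16). The difference of Rpl32l (SD 1.20 to 0.29) reflects adding Rpl32, which held nearly all of the sum.

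Rpl7 was different. This large subunit gene was at 4.06 FPKM in nonresponder 6 and from 90.7 to 180 FPKM in the other 11 mice, and its copies did not make up the gap: with them the value in nonresponder 6 was 6.72 FPKM and the next lowest mouse was at 94.97. The log2 difference between groups was 0.86 ± 0.77 (adjusted p = 0.803).

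**Figure D4:**
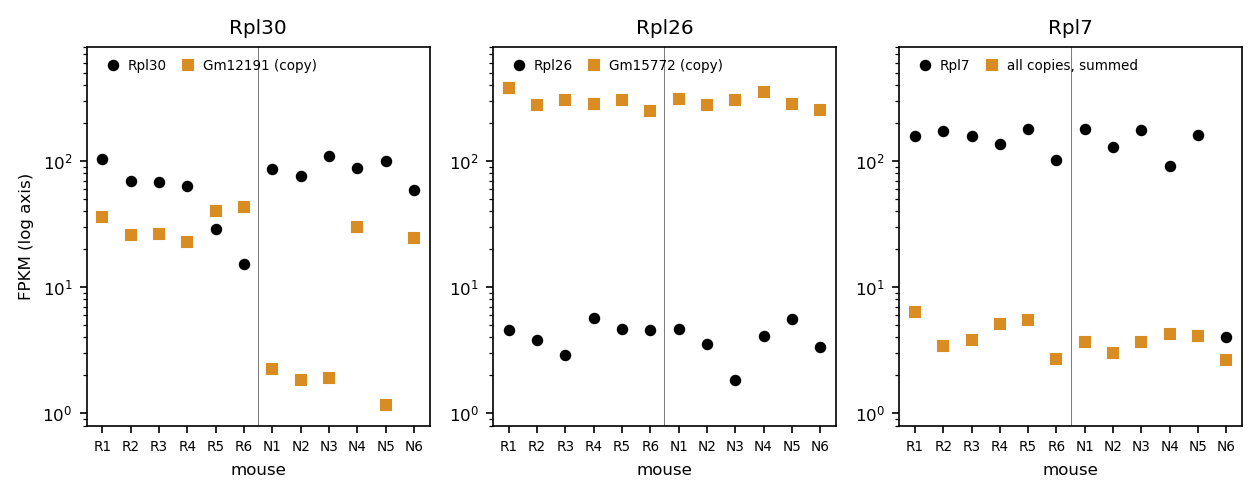
Level in each mouse (R, responder; N, nonresponder; FPKM on a log axis) of Rpl30 with Gm12191, Rpl26 with Gm15772, and Rpl7 with its copies summed; circles are the genes and squares the copies. Gm12191 is at 22.8 FPKM or more in all R mice and near 2 FPKM in 4 N mice, Gm15772 lies far above Rpl26 throughout, and Rpl7 is low in N6 alone.

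**Figure D5:**
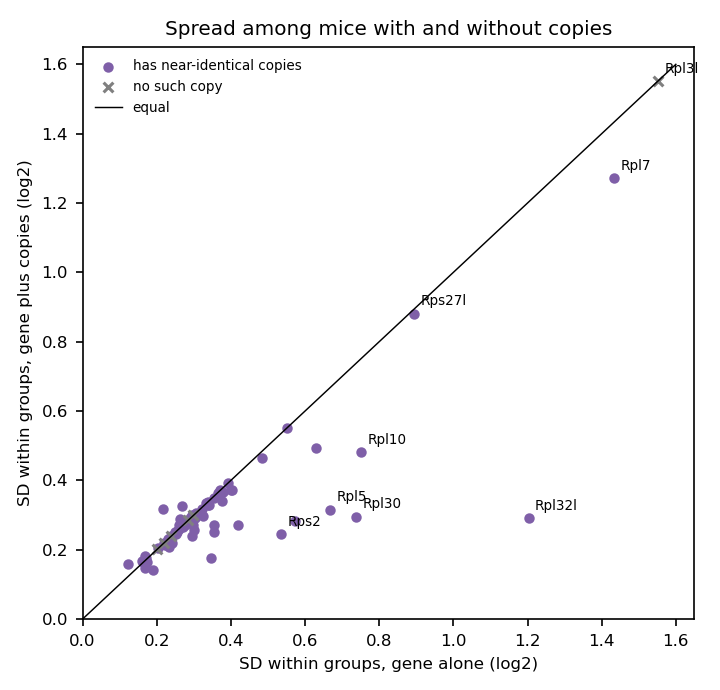
Within-group SD of log2(FPKM + 1) for each tested member alone (horizontal) and with its near-identical copies added (vertical), with a line at equal SD; crosses are members with no such copy. Rpl30, Rpl5, Rps2 and Rpl32l fall well below the line, while Rpl3l and Rps27l stay on or next to it and Rpl7 remains high.

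Females and males were compared in the same model. At an adjusted p below 0.05 limma called 0 of 80 members higher and 0 lower in females (background 0.0141% and 0.0422%). At an unadjusted p below 0.05, 0 were higher and 1 was lower (background 2.01% and 2.51%). That gene was Rpl35a, a large subunit gene mutated in some forms of Diamond-Blackfan anaemia, with a log2 difference of -0.66 ± 0.29 (adjusted p = 0.864) and 8 copies at 1 FPKM or more. Next came Rps3, a small subunit protein at the mRNA entry (-0.49 ± 0.23), and Rps18 (-0.36 ± 0.17), both with an adjusted p of 0.864.

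Estimates were lower in females for 69 of 80 members (background 51.7%), with a median of -0.13. Responder 1 and nonresponder 4 are both male. Without these 2 mice 28 of 80 estimates were lower in females and the median was 0.05.

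The response was also taken within each sex, with 3 mice against 3. In males limma called 0 members in either direction (background 0.00704% each way), and 0 were higher and 1 lower at an unadjusted p below 0.05 (background 3.11% and 3.67%). In females it called 0 (background 0.00704% for higher and 0% for lower), and 5 were higher and 0 lower unadjusted (background 3.13% and 3.68%). These 5 were Rpl9 (log2 difference 0.64 ± 0.21), Rpl3 (0.42 ± 0.14), Rpl37rt (0.63 ± 0.27), Rps15 (0.52 ± 0.23) and Rpl5 (1.01 ± 0.45), with adjusted p from 0.684 to 0.726. Copies held 94.25% of the summed level of gene and copies in Rpl37rt, 66.6% in Rpl5, 46.2% in Rpl3, 20.2% in Rpl9 and 2.8% in Rps15. Where that share is large, the estimate depends on how reads were shared out.

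The difference between the sexes in response was tested as an interaction. It was called in 0 members (background 0% each way), and 2 were positive at an unadjusted p below 0.05 and 0 negative (background 2.39% and 2.62%). The first was Rpl32l, with a log2 difference of -2.37 ± 0.68 in males. Male responders 1, 2 and 6 had 0.185, 0.230 and 0.109 FPKM and male nonresponders 2, 4 and 5 had 10.04, 2.87 and 4.18. Its interaction was 3.16 ± 0.96 (adjusted p = 0.836), and that of Rps27l was 2.15 ± 0.78 (adjusted p = 0.836). The copies of Rpl32l, chiefly Rpl32, held 99% of the summed level of gene and copies. With copies added the interaction of Rpl32l was 0.16, by construction largely that of Rpl32.

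Genes around the ribosome were taken from lists and gave as few calls. In each of the lists that follow, limma called 0 genes at an adjusted p below 0.05 in either direction. Of 29 tested ribosome assembly and ribosomal RNA synthesis genes, 0 passed an unadjusted p of 0.05, and the median log2 difference was 0.02. The smallest p belonged to Nmd3, the export adaptor of the large subunit, averaging 1.19 ± 0.29 FPKM among responders and 1.62 ± 0.52 among nonresponders (SD, n = 6 each; adjusted p = 0.718). Gar1 (log2 difference 0.26 ± 0.16) and Nhp2 (-0.16 ± 0.10), both of the particle that makes pseudouridine, came next.

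Of 19 tested genes of mTORC1 and regulators of TOP mRNAs, 1 was lower at an unadjusted p below 0.05 and 0 were higher (background 4.17% and 3.23%). This was Eif4ebp1, a translation repressor that mTORC1 phosphorylates, averaging 2.44 ± 0.49 FPKM among responders and 3.88 ± 1.95 among nonresponders (SD, n = 6 each; log2 difference -0.44 ± 0.19, adjusted p = 0.644). Nonresponder 4 stood at 7.76 FPKM and the other nonresponders at 2.52 to 3.70; without nonresponder 4, a check added after seeing the data, the log2 difference was -0.27 ± 0.12 (adjusted p = 0.830). Akt1s1, an inhibitor within mTORC1, had a log2 difference of 0.37 ± 0.19 (adjusted p = 0.706). Among 11 tested genes of ribosome quality control, led by the rescue factor Pelo (0.22 ± 0.11, adjusted p = 0.694), 0 passed unadjusted, as did 0 of 17 elongation factors and TOP mRNAs, led by Eif3f (0.12 ± 0.09, adjusted p = 0.768).

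The ribosomal genes outside the naming rule gave 0 of 7 and, for Rps3a1, Rpl7l1 and Rpl22l1, 0 of 3 at an unadjusted p below 0.05. Mitochondrial ribosomal proteins, the nearest family by function, had 2 of 78 higher and 1 lower unadjusted (background 3.23% and 4.17% of all genes). Their median log2 difference was -0.02. The genes passing unadjusted were Mrps17 (0.34 ± 0.12) and Mrpl10 (0.25 ± 0.10), higher in responders, and Mrps36 (-0.26 ± 0.11), lower, all with adjusted p of 0.602 to 0.640.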

How the data were processed

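Values are FPKM, which the authors deposited as 1 table with 1 value per gene and mouse; the unit is not named in the table and was read from its values. STAR 2.6.0a, StringTie 1.3.5, GRCm38 and mm10 are named in the submitters' processing notes, without settings. No counts were used, and no count test was run: the step between low single-exon values implied 17200000 to 38500000 fragments per mouse, but whole reads were not recovered. The tested genes reached 1 FPKM in 3 or more mice. On log2(FPKM + 1), limma 3.58.1 under R 4.3.3 fitted response and sex over all 12 mice, and a second fit added their interaction, with p adjusted over all 14203 genes. The fit was also run on simulated normal values drawn independently for each gene. The members vary together, and that run was not used to judge their results.

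Each mouse is 1 replicate. The first number in the sample descriptions, of unstated meaning, is held by mice of 1 group only, so it and the response cannot be told apart. Symbols came from GENCODE M21 and copies from blastn 2.17.0. Members and lists were chosen with earlier results of these data known. Named members are the 6 smallest p in each direction, the 5 highest and lowest levels, the 3 smallest p for interaction and for sex, members with an outlying mouse or a listed 0, the 5 smallest and largest spreads, and the paralogs with their parents; up to 4 genes by p could be named per list. Alternatives covered pseudocounts, filters, scalings, model terms, weights, copies and left-out mice. Protein sequences were not used here. A few genes are counted but not reported here by name.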

Additional observations from a re-analysis of the deposited data

Results flagged for a closer look

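Within each group of 6 mice, the gap between the most extreme mouse and its neighbour was divided by the whole range, on log2(FPKM + 1). Values above Dixon's critical value for 6 samples are listed. For a single group of normal values chance gives about 1 in 20. The members vary together across the same mice, so their groups are not independent and that rate is no benchmark for their count. The share of groups listed over all genes was not computed. Of 162 member groups, 25 were listed, in 23 members, and 17 of the 25 were high values in responder 1. They included Rps27 (0.819), Rpl4 (0.779), Rps13 (0.744), Rps4x (0.74), Rpl14 (0.727), Rpl7a (0.706), Rpl12 (0.705), Rps7 (0.693), Rpl41 (0.687), Rpl36a (0.676), Rpl27a (0.672), Rps6 (0.664), Rpl17 (0.64), Rpl37 (0.633), Rpl13 (0.631) and Rps23 (0.627). In Rps27 responder 1 stood at 492 FPKM and the other responders at 217 to 252.

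High values in nonresponder 4 were listed for Rps29 (0.69), Rpl36 (0.664), Rpl13a (0.641) and Rps6 (0.637). The summed member level (0.733) and the summed level of the copies (0.68) were also listed as high in responder 1. The pituitary markers of responder 1 and the blood and muscle markers of nonresponder 4 are given with the results, and their part in these values was not tested.

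The remaining values belong to single genes. Rpl7 was low in nonresponder 6 (0.81) and Rpl3 low in responder 6 (0.707). Rpl28, a large subunit gene, was high in responder 5 (0.695), at 92.2 FPKM against 33.2 to 45.4 in the other responders, and low in nonresponder 3 (0.722), at 31.2 FPKM. Among single copies and genes outside the naming rule, only Gm12191, Gm15772, Gm10243, Rps2-ps10, Rps2-ps13, Rps3a1 and Rps3a3 were screened. Of these, Rps3a3 was low in nonresponder 3 (0.772) and Rps2-ps10 high in nonresponder 4 (0.629). Other copies were not screened, among them Gm10260, a copy of Rps18. It was at 0 FPKM in responder 1 and at 57.69 to 82.49 FPKM in the other responders.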

How the results depend on the processing

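Over 27 alternatives of the response comparison, members called stayed at 0, the smallest adjusted p was 0.327 (without responder 6) and the median log2 difference ran from -0.07 (without responder 1) to 0.10 (without responder 6). Females against males, and the response in females, also gave 0 calls under all 25 alternatives each. With array weights, 25 of 80 members were called in males (5 higher, 20 lower) and 2 for the interaction, and Rpl9 passed for the interaction (1.04, adjusted p = 0.0311); there the weights stopped before convergence and 5787 of 14203 genes were called in males, and the cause was not tested. With mice left out 1 at a time, the median in males ran from -0.20 to 0.14. Scaling by summed FPKM lowered the median deviation to 0.23 in responder 1 (0.24 with members left out of the sum) and to 0.25 in nonresponder 4, while the median over all genes became -0.15 (-0.15) and -0.13 there. Rpl30 reversed to 0.14 with copies added, by construction of the sum. Under the alternatives, 468 values for single genes kept their direction and side of the threshold. Their size was not part of that rule, and the Rpl32l interaction ran from 0.16 to 5.965. Another 285 counts, medians and deviations were unchanged or moved by less than the spread between mice. The median log2 differences were smaller than that spread, so changes of sign are among these 285. The median ran from -0.24 to 0.05 for females against males and from -0.12 to 0.24 for the interaction. Averaging by description number was run for the response alone.

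With the replicate number as a block, 0 members were called for the response. Same-numbered mice correlated at -0.27 to 0.13, over 0.1 in 1 of 6 pairs, and 0 responders matched their own number best, so the numbers were not taken as pairs. FPKM without counts gives no interval for counting error.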

Other observations

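Rps3a1, a small subunit gene that the naming rule leaves out, and its processed pseudogene Rps3a3 had opposed values in every mouse but nonresponder 4. Both genes, and the processed pseudogene Rps3a2, were chosen after their values were seen. Rps3a3 was at 1.31 to 2.90 FPKM in responders 1 to 4 and 2.04 in nonresponder 3, and from 43.3 to 105 FPKM in the other 7 mice. Rps3a1 was at 276 to 550 FPKM in the former 5 mice. In the latter 7 it was at 120 to 226 FPKM, except in nonresponder 4, at 326 FPKM. Mice that share the first number of the sample description lay on the same side for Rps3a3: 48 and 49 low, 82 and 83 high. Between groups, Rps3a1 had a log2 difference of 0.49 ± 0.32 (limma adjusted p = 0.755), Rps3a2 -1.02 ± 0.36 (0.590) and Rps3a3 -2.63 ± 1.06 (0.640). The description number is held by mice of 1 group only, so it and the response cannot be told apart here.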
